A study of Mus musculus with 12 samples.

Results

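The proteasome subunit genes of the mouse kidney were followed on 12 arrays from 3 genotypes. Members were the probes whose platform symbol begins with Psma, Psmb, Psmc, Psmd or Psme and a number, leaving out the immunoproteasome genes Psmb8, Psmb9 and Psmb10. This took 62 probes of the 23863 in the deposited table and 38 genes of 12344. Of these, 36 genes with 59 probes encode subunits, activators or assembly factors of the proteasome, and the other 2, Psmc3ip and Psme3ip1, share only the name and were kept apart. The 36 genes comprise 5 alpha and 8 beta genes of the 20S core, 6 ATPases, 13 non-ATPase genes and 4 activators. Psma1, Psma3, Psma6 and Psmd3 were not analysed here.

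The labels give the strain as C57BL/6. The mice were aged 15 weeks, a stage of early cystic disease, with 4 arrays in each group and a separate mouse for each array. Fh1-/- mice (labelled Fh1 KO) carry conditional alleles of Fh1, which encodes fumarate hydratase, deleted by Ksp-Cre. In Fh1-/-Hif-1α-/- mice (labelled Hif1a/Fh1 KO, and called the double knockout below) the same Cre deletes Fh1 and Hif-1α together. Littermates served as controls; some lacked the Cre transgene and others had it together with an intact allele. The kidney-specific cadherin promoter drives Ksp-Cre in tubule cells alone, so the other cells of the kidney keep both genes. Stained sections in the study also showed Fh1 in some of the tubules of both knockout groups. The labels call the tissue of all 12 samples cysts, whereas the study describes kidneys. RNA was read on BeadChips of the type Illumina MouseWG-6 v2, and each value below is a normalized log2 signal, so that a difference of 1 is a 2-fold change. Levels were never set between probes, because brightness also depends on the probe itself.

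The proteasome degrades proteins that carry ubiquitin chains. Its 20S core is a barrel of alpha and beta rings, in which 3 beta subunits hold the proteolytic sites. The 19S cap binds the chains, removes them, unfolds the substrate with a ring of ATPases and threads it into the core, while activators of the Psme genes open the barrel in place of the cap. In mammals the transcription factor Nrf1 (Nfe2l1) raises subunit genes together when proteolysis falls short. Nrf2 (Nfe2l2), which is held down by Keap1 and released in fumarate hydratase deficiency, is also known to act on some of them. Hif-1α is itself destroyed by the proteasome when oxygen is present.

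Nrf1 and Nrf2 bind the antioxidant response element, whose core was searched as TGACNNNGC on both strands of the RefSeq promoters (GRCm38.p6, 250 bases before to 50 after the start). Promoters were matched for 30 of the 36 genes. The core was present in 6 of the 30 (20%), namely Psmb5, Psmb6, Psmc6, Psmd9, Psmd12 and Psme4, against 14% of all 27025 genes with a promoter (12.4% of 32851 promoters). The window of Nqo1, a classical Nrf2 target, held no match. It lies within 50 bases of the start in Psmb5, Psmb6, Psmd9 and Psme4, whose sequences are shown for the place of the core beside the start, with the core in capitals. The Psmb5 stretch is chr14:54617996-54618095 on the minus strand. The others are on the plus strand, at chr11:70525327-70525356 for Psmb6, chr5:123228090-123228189 for Psmd9 and chr11:30771675-30771776 for Psme4. In Psme4 the core reads on the opposite strand.
Psmb5: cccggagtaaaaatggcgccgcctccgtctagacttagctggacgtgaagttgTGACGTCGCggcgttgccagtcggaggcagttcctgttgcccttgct
Psmb6: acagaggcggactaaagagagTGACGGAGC
Psmd9: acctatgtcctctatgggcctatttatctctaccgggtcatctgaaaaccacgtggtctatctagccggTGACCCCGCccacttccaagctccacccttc
Psme4: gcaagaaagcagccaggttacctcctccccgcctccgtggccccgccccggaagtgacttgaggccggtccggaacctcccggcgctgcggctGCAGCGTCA

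Other motifs were counted in the same windows. For Hif, only the form ACGTG of its core was searched. It was found in 6 of 30 subunit promoters (20%: Psma4, Psma7, Psmb5, Psmd9, Psmd13 and Psme3) and in those of 21.8% of all genes (19.6% of promoters). The interferon-type element, read as GAAA, any 2 bases and GAAA, was found in 4 of 30 (13.3%: Psmb3, Psmd4, Psmd9 and Psme1) and in those of 3.99% of all genes (3.44% of promoters). These are matches of letters and were not tested as binding sites.

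Replicates 1 and 2 of every group (6 arrays) had a 1st percentile of signal of 7.46 to 7.54, and replicates 3 and 4 (6 arrays) one of 7.34 to 7.40, a split without a label. Xist, which marks the inactive X chromosome, was high on 1 control, 2 Fh1-/- and 2 double knockout arrays, and the labels give no sex. Of 8 kidney tubule markers, all measured, 7 stood below control in both knockout groups. The probe of Fh1 averaged 14.25 ± 0.02 (SD, n = 4) in control kidneys, 14.12 ± 0.12 (n = 4) after loss of Fh1 and 13.85 ± 0.17 (n = 4) in the double knockout, a fall that passed only in the double knockout (log2 fold change −0.40, adjusted p = 0.014 from limma; −0.14, adjusted p = 0.45 in Fh1-/-). The probe of Hif1a was higher in the kidneys labelled Hif1a/Fh1 KO (0.85, adjusted p = 0.016). The difference was 0.78 (adjusted p = 0.053) without replicate 2 of that group and 0.81 (adjusted p = 0.051) without control replicate 1. Under quantile normalization the fall of Fh1 was −0.27 (adjusted p = 0.054). Whether these probes read the deleted exons is not given in the sources used here, so their levels do not check the labels.

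No proteasome subunit gene, taken by its brightest probe, passed the test in any comparison. In Fh1-/- against control kidneys 0 of 36 genes were called by limma at an adjusted p under 0.05, while 6.16% of all 12344 genes were called. In double knockout against control kidneys 0 of 36 were called against a background of 19.3%, and between the knockout groups 0 of 36 against 0.267%. At an unadjusted p under 0.05 the counts were 4, 5 and 0 of 36, where 24.1%, 34.5% and 10.8% of all genes lay. Leaving out any 1 array gave 0 calls in Fh1-/- kidneys and at most 1 in double knockout kidneys, which was Psma4 without double knockout replicate 4 (−0.40, adjusted p = 0.029).

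The changes were small and closely measured. Log2 fold changes of the 36 genes ran from −0.31 to 0.25 in Fh1-/- and from −0.33 to 0.30 in double knockout kidneys against control, and from −0.17 to 0.27 between the knockout groups. The 95% interval lay inside 2-fold in either direction for 36 of 36 genes in all 3 comparisons, and inside 1.5-fold for 33, 31 and 34 of them (91.7%, 86.1% and 94.4%), against 65%, 57.6% and 74.4% of all genes. The median standard error was 0.11 for the subunit genes and 0.14 for all genes, and the median SD within groups was 0.14 against 0.20. For all genes at signals of 12 or above, where 26 of the 36 subunit genes lay, they were 0.12 and 0.17. By comparison, Nqo1, a classical Nrf2 target encoding a quinone reductase, rose from 11.32 ± 0.24 in control to 13.04 ± 0.34 in Fh1-/- (3.29-fold, adjusted p = 0.0016) and 13.48 ± 0.49 in double knockout kidneys (4.46-fold, adjusted p = 0.00011; SD, n = 4 each).

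**Figure D1:**
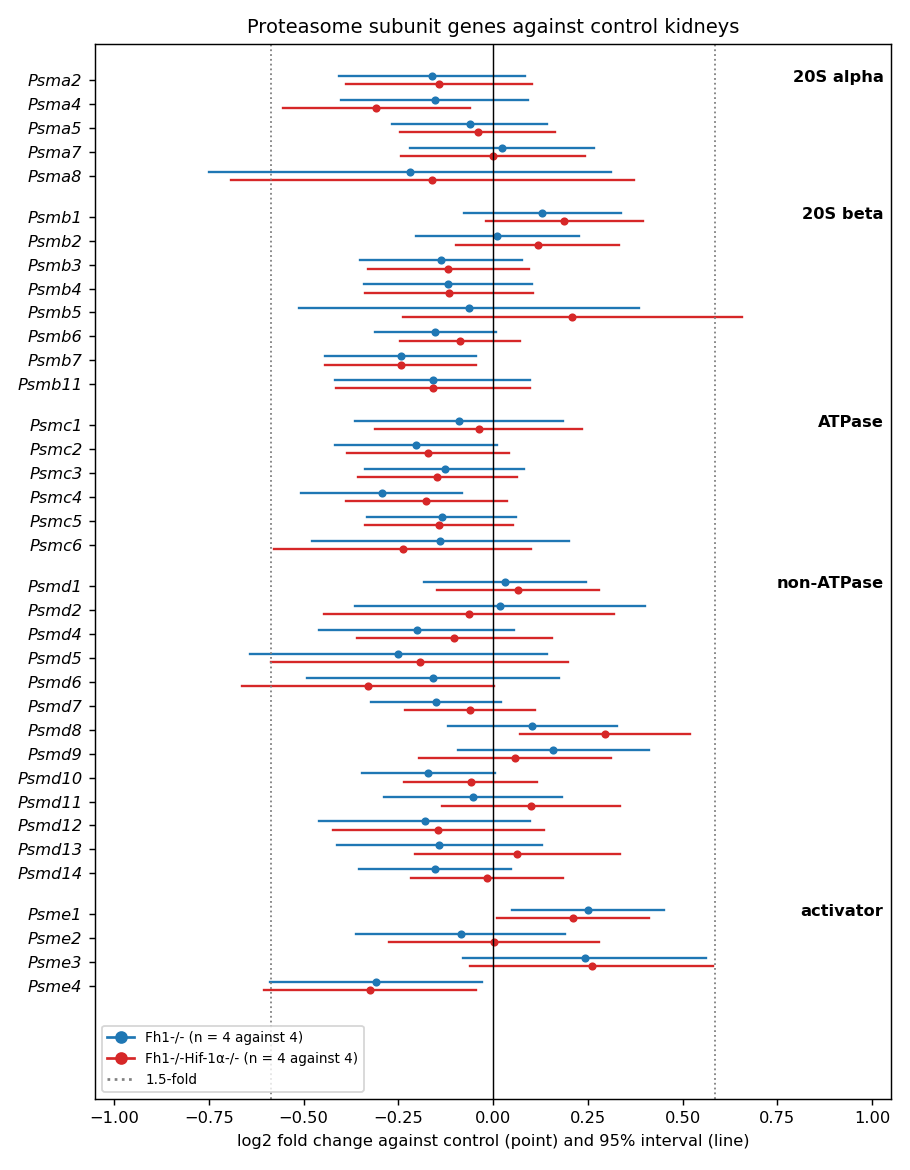
Log2 fold change of each of the 36 subunit genes against control (x axis; points) with its 95% interval (lines), for Fh1-/- (blue) and double knockout (Fh1-/-Hif-1α-/-, red) kidneys, n = 4 against 4 arrays, by class. Dotted lines mark 1.5-fold; all 36 intervals lie inside 2-fold and most inside 1.5-fold in both groups.

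Within these limits the subunit genes leaned below control. In Fh1-/- kidneys 27 of 36 genes were below 0, where 55.6% of all genes were, with a median of −0.14 against −0.03 over all genes. In double knockout kidneys 25 of 36 were below 0 against 53.7%, with a median of −0.08 against −0.03. Between the knockout groups 11 of 36 were below 0 against 46.9%, and the median was 0.03 against 0.01. The ATPases were the class below 0 in 6 of 6 genes in both groups, with medians of −0.14 and −0.16. The medians in Fh1-/- and double knockout kidneys were −0.15 and −0.14 for the alpha genes and −0.13 and −0.10 for the beta genes. For the non-ATPase genes they were −0.15 and −0.06, and for the activators 0.08 and 0.11. These counts and medians include Psma8 and Psmb11, both near the dimmest signals and below 0 in both groups.

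The lean moved with signal and with the normalization. The median of bright probes, over all genes, stood below control after the arrays were aligned at their 75th percentile, and 26 of the 36 subunit genes had a mean signal of 12 or above. Over all probes the median change in double knockout kidneys was −0.02 at signals of 10 to 11 and −0.18 at signals of 14 to 15, and it reached −0.29 at signals of 15 to 16, where 2 of the subunit genes lay. Among genes at 12 or above, the median of all genes was −0.09 in Fh1-/- and −0.12 in double knockout kidneys, beside −0.14 and −0.07 for the 26 subunit genes. Under quantile normalization, which gives every array the same distribution, the subunit medians were −0.05 and 0.01, with 25 and 17 of 36 genes below 0. With the arrays shifted to equal medians they were −0.16 and −0.11, with 30 and 26 of 36 below 0. Under quantile normalization the ATPase medians were −0.06 in both groups, while the alpha and beta medians in double knockout kidneys changed sign to 0.05 and 0.07. The part of the scaling in the lean cannot be told apart from that of genotype.

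**Figure D2:**
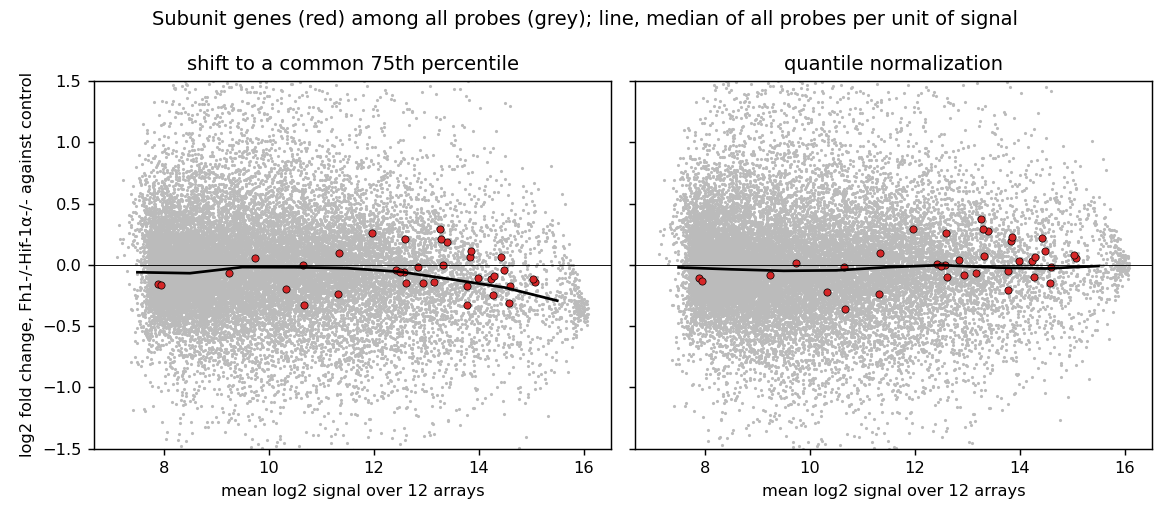
Log2 fold change of the double knockout, Fh1-/-Hif-1α-/-, against control (y axis) by mean log2 signal over 12 arrays (x axis), for all probes (grey) and the subunit genes (red), with the shift to a common 75th percentile (left) and quantile normalization (right). The black line is the median of all probes per unit of signal and falls to −0.18 at signals of 14 to 15 and −0.29 at 15 to 16 on the left; 296 and 294 probes lie beyond ±1.5 and are not drawn.

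**Figure D3:**
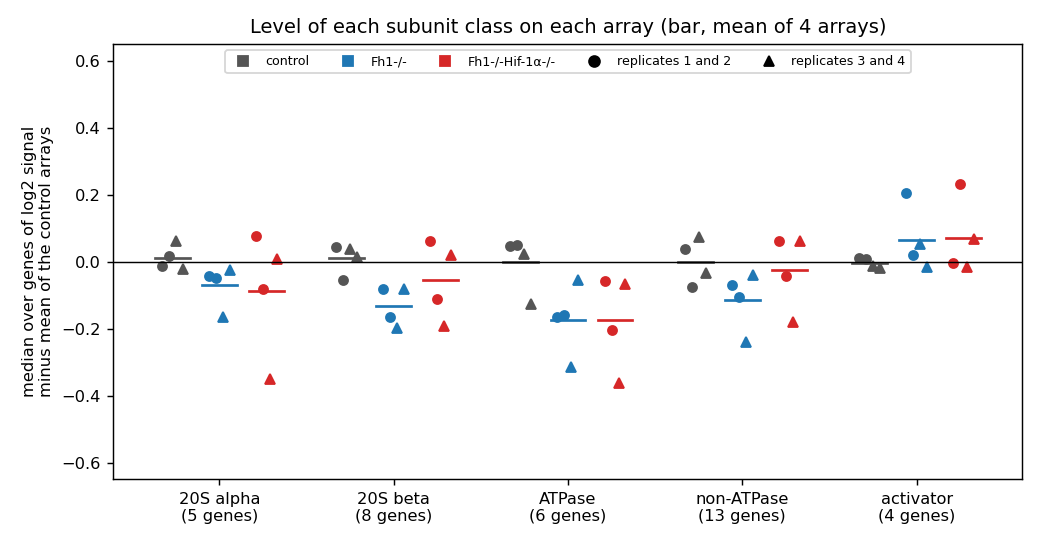
Median over the genes of each class of log2 signal minus the mean of the control arrays (y axis), 1 point per array, with bars at the mean of 4 arrays; circles are replicates 1 and 2 and triangles are replicates 3 and 4. ATPase values run from −0.13 to 0.05 on the control arrays, from −0.31 to −0.05 on the Fh1-/- arrays and from −0.36 to −0.06 on the double knockout arrays, and these ranges overlap.

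Array by array, the lean was uneven. In the plot of class levels the ATPase value of control replicate 4 was −0.13, below the −0.05 of the highest Fh1-/- array. The median over all 36 genes was −0.28 in double knockout replicate 3 and −0.22 in Fh1-/- replicate 3, the lowest in their groups. Without double knockout replicate 3 the median against control moved from −0.08 to −0.03, and without Fh1-/- replicate 3 that of Fh1-/- moved from −0.14 to −0.09. The medians were −0.09 and −0.02 over replicates 1 and 2, and −0.15 and −0.14 over replicates 3 and 4.

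The alpha ring of the 20S core forms the gate through which substrates enter. Psma4, one of its constitutive subunits, read 14.72, 14.80, 14.79 and 14.62 on the control arrays, 14.51, 14.68, 14.41 and 14.71 in Fh1-/- and 14.50, 14.34, 14.17 and 14.69 in double knockout kidneys. Only the fourth double knockout array reached the control range. The difference from control was −0.31 (standard error 0.11, adjusted p = 0.083; exact permutation p = 0.057) in the double knockout and −0.15 (adjusted p = 0.48) in Fh1-/- kidneys. Psma2, another constitutive subunit, read 15.27, 15.19, 15.02 and 15.20 in control, 15.13, 15.12, 14.88 and 14.92 in Fh1-/- and 15.26, 15.09, 14.73 and 15.04 in double knockout kidneys. Its groups overlapped (−0.16, adjusted p = 0.46 and −0.14, adjusted p = 0.43). The brighter probe of Psma5 was at −0.06 and −0.04 and its dimmer probe at −0.12 and −0.16 in Fh1-/- and double knockout kidneys, and Psma7 was at 0.02 and 0.00. Psma8, the testis form of an alpha subunit, averaged 7.94, near the dimmest signals of the arrays.

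The beta ring holds the active sites, of which Psmb5 is chymotrypsin-like, Psmb6 caspase-like and Psmb7 trypsin-like. Psmb7 read 14.42, 14.37, 14.60 and 14.34 in control, 14.19, 14.22, 14.04 and 14.29 in Fh1-/- and 14.25, 14.07, 14.10 and 14.32 in double knockout kidneys. On this probe, its brightest, every knockout array was below every control array. The change was −0.24 in both groups (standard error 0.09), with an adjusted p of 0.14 and 0.089 from limma and an exact permutation p of 0.029, the smallest that 4 against 4 arrays allow. The 3 other probes of Psmb7 gave −0.33, −0.28 and −0.14 in Fh1-/- and −0.30, −0.27 and −0.17 in double knockout kidneys, and none was called. All 3 overlapped control in the double knockout, and the last of them in Fh1-/- as well.

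Psmb5 was the most variable of the proteolytic subunits. It read 12.72, 12.10, 12.68 and 12.70 in control, 12.91, 12.09, 12.13 and 12.81 in Fh1-/- and 13.01, 12.77, 12.52 and 12.72 in double knockout kidneys. Low values near 12.1 occurred on 1 control and 2 Fh1-/- arrays. The differences from control were −0.06 (standard error 0.21, adjusted p = 0.9) and 0.21 (adjusted p = 0.54), with 95% intervals of −0.51 to 0.38 and −0.24 to 0.66. For the brighter probe of Psmb6 the Fh1-/- arrays, at 14.17 to 14.28, were all below the control arrays at 14.32 to 14.41. The change was −0.15 (adjusted p = 0.25) in Fh1-/- and −0.09 (adjusted p = 0.45) in double knockout kidneys. Its dimmer probe was at −0.19 (adjusted p = 0.39) and −0.21 (adjusted p = 0.25), with overlapping groups.

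Among the other beta subunits, Psmb1 was the member with the highest values relative to control. It read 13.42, 13.28, 13.36 and 13.11 in control, 13.35, 13.48, 13.35 and 13.52 in Fh1-/- and 13.59, 13.47, 13.31 and 13.57 in double knockout kidneys. The groups overlapped, with differences of 0.13 (adjusted p = 0.48) and 0.19 (adjusted p = 0.2), and the second passed under quantile normalization (0.27, adjusted p = 0.031). Psmb2, Psmb3 and Psmb4 lay between −0.14 and 0.12 in both groups. Psmb11, the subunit of the thymus cortex, averaged 7.89, near the dimmest signals.

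The ATPases Psmc1 to Psmc6 form the unfolding ring at the base of the cap. Psmc4 read 14.08, 13.86, 14.00 and 13.79 in control, 13.61, 13.61, 13.55 and 13.77 in Fh1-/- and 13.90, 13.72, 13.57 and 13.83 in double knockout kidneys. All Fh1-/- arrays were below all control arrays, whereas the double knockout arrays overlapped both groups. The change was −0.29 (standard error 0.10, adjusted p = 0.1; exact permutation p = 0.029) in Fh1-/- and −0.18 (adjusted p = 0.25) in double knockout kidneys. Psmc2 read 14.84, 14.78, 14.76 and 14.51 in control, 14.54, 14.55, 14.35 and 14.65 in Fh1-/- and 14.60, 14.48, 14.44 and 14.69 in double knockout kidneys. One control array lay among the knockout arrays (−0.20, adjusted p = 0.26 and −0.17, adjusted p = 0.26), and its dimmer probe was at −0.35 (adjusted p = 0.11) and −0.22 (adjusted p = 0.25). The other 4 ATPases lay between −0.24 and −0.04.

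The non-ATPase genes encode the ubiquitin receptors, the scaffold and the lid of the cap, and 3 of them, Psmd5, Psmd9 and Psmd10, chaperones that assemble its base. Psmd8, a lid subunit, had the smallest adjusted p of all members by their brightest probe. It read 13.09, 12.95, 13.28 and 13.19 in control, 13.38, 13.09, 13.21 and 13.24 in Fh1-/- and 13.58, 13.51, 13.29 and 13.33 in double knockout kidneys. All double knockout arrays were above all control arrays, and the Fh1-/- arrays overlapped both. The differences were 0.30 (standard error 0.10, adjusted p = 0.069; exact permutation p = 0.029) and 0.10 (adjusted p = 0.63). Under quantile normalization the first passed (0.37, adjusted p = 0.018).

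Psmd6, another lid subunit, had the lowest value in the double knockout against control. It read 10.81, 10.98, 10.66 and 10.87 in control, 10.64, 10.94, 10.29 and 10.81 in Fh1-/- and 10.62, 10.48, 10.18 and 10.72 in double knockout kidneys. The groups overlapped at 10.66 to 10.72 (−0.33, standard error 0.15, adjusted p = 0.16; −0.16, adjusted p = 0.61 in Fh1-/-). Psmd10, also called gankyrin, read 12.62, 12.54, 12.59 and 12.54 in control, 12.28, 12.41, 12.43 and 12.49 in Fh1-/- and 12.51, 12.56, 12.39 and 12.60 in double knockout kidneys. On this probe, its brightest, the Fh1-/- arrays were all below control, by −0.17 on average (adjusted p = 0.25). The double knockout arrays were not (−0.06, adjusted p = 0.67). Of its dimmer probes, 1 was at −0.28 in Fh1-/- and −0.20 in double knockout kidneys. There too all Fh1-/- arrays were below control and the double knockout arrays overlapped it. The other, at −0.07 and −0.16, overlapped control in both groups. Psmd4, a ubiquitin receptor, was at −0.20 and −0.10, and Psmd14, the deubiquitinase of the lid, at −0.15 and −0.02, in Fh1-/- and double knockout kidneys.

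The activators were the class whose median was above control in both groups. Psme1 and Psme2 encode the partners of an interferon-inducible ring that caps the core and lie close together on chromosome 14. Psme1 has 2 probes. The brighter read 13.07, 13.12, 13.05 and 13.32 in control, 13.41, 13.45, 13.50 and 13.19 in Fh1-/- and 13.27, 13.39, 13.36 and 13.38 in double knockout kidneys. The fourth control array lay among the knockout arrays, and the differences were 0.25 (standard error 0.09, adjusted p = 0.14) and 0.21 (adjusted p = 0.14). The dimmer read 12.28, 12.14, 12.10 and 12.36 in control, 12.62, 12.54, 12.59 and 12.30 in Fh1-/- and 12.62, 12.70, 12.53 and 12.48 in double knockout kidneys. On this probe all double knockout arrays were above all control arrays, and the rise passed the test (0.37, 1.29-fold, standard error 0.10, adjusted p = 0.024), whereas the Fh1-/- difference did not (0.30, adjusted p = 0.1).

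The groups of Psme2 overlapped. It read 10.62, 10.77, 10.49 and 10.82 in control, 10.81, 10.66, 10.51 and 10.37 in Fh1-/- and 10.54, 10.89, 10.52 and 10.75 in double knockout kidneys, with differences of −0.09 (95% interval −0.36 to 0.19) and 0.00 (−0.27 to 0.28). Psme3, the nuclear member of the family, was at 0.24 (adjusted p = 0.38) and 0.26 (adjusted p = 0.26). Psme4 encodes a large activator of a separate type, found in nuclei. It read 14.07, 13.79, 14.29 and 13.81 in control, 13.62, 13.63, 13.57 and 13.91 in Fh1-/- and 13.75, 13.58, 13.49 and 13.85 in double knockout kidneys. One array of each knockout group lay in the control range, and the differences were −0.31 (adjusted p = 0.19) and −0.32 (adjusted p = 0.1).

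**Figure D4:**
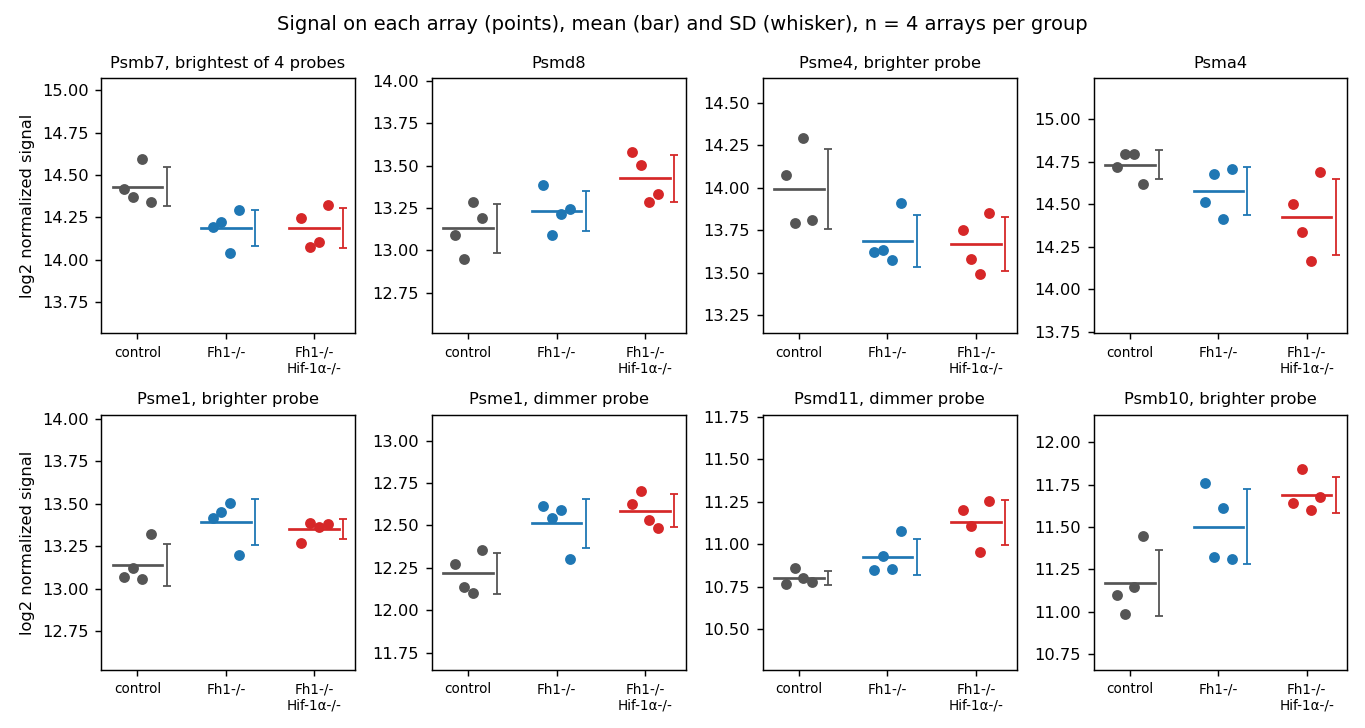
Log2 normalized signal (y axis) on each array for 7 member probes and Psmb10, with the mean (bar) and SD (whisker) of 4 arrays per group; axes do not start at 0 and all span the same range of log2 units. The double knockout arrays stand wholly above control for Psmd8, the dimmer probes of Psme1 and Psmd11 and for Psmb10, and wholly below for the brightest probe of Psmb7.

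Counted by probe, 2 of 59 subunit probes were called, both in double knockout against control kidneys, where 16.6% of all probes were called and 8.62% were called higher. None was called in Fh1-/- against control kidneys or between the knockout groups, where 4.97% and 0.189% of all probes were. Besides that of Psme1, the second was the dimmer probe of Psmd11, a lid scaffold subunit. It read 10.77, 10.86, 10.80 and 10.78 in control, 10.85, 10.93, 10.86 and 11.07 in Fh1-/- and 11.20, 11.11, 10.95 and 11.25 in double knockout kidneys. All double knockout arrays were above all control arrays (0.33, 1.25-fold, adjusted p = 0.033). The brighter probe did not pass (0.10, adjusted p = 0.57), and with the arrays shifted to equal medians the call was lost (adjusted p = 0.073). Leaving out 1 array at a time, 5 of 12 fits kept the call of Psmd11 (adjusted p 0.02 to 0.088) and 8 of 12 that of Psme1 (0.017 to 0.078).

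By the brightest probe, groups did not overlap for 5 genes in Fh1-/- against control kidneys, where 16.2% of all genes did not overlap. All 5 were lower (Psmb3, Psmb6, Psmb7, Psmc4 and Psmd10). Groups did not overlap for 2 genes in double knockout kidneys (Psmd8 higher and Psmb7 lower), against 21.9%, and for 0 between the knockout groups, against 6.03%. For 18 subunit genes with several probes, the probes had the same sign in 15 genes in Fh1-/- and in 16 in double knockout kidneys against control. Between the knockout groups they had the same sign in 8 genes. The median distance between the probes of a gene was 0.12, 0.09 and 0.07, about the size of the changes themselves.

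Between double knockout and Fh1-/- kidneys no subunit gene passed the test, with a smallest adjusted p of 0.67. The largest differences were those of Psmb5 (0.27, 95% interval −0.18 to 0.72), Psmd13 (0.21, adjusted p = 0.75) and Psmd8 (0.19, adjusted p = 0.67), and the lowest that of Psmd6 (−0.17, adjusted p = 0.88). The interval lay inside 1.5-fold in 34 of 36 genes. Both comparisons against control used the same 4 control arrays.

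The inducible active-site subunits, which replace Psmb5, Psmb6 and Psmb7 in the immunoproteasome, lie outside the member rule. Psmb10 read 11.10, 10.99, 11.15 and 11.44 in control, 11.76, 11.32, 11.61 and 11.31 in Fh1-/- and 11.64, 11.84, 11.60 and 11.68 in double knockout kidneys. It rose in the double knockout (0.52, 1.43-fold, adjusted p = 0.017), and so did its second probe (0.49, adjusted p = 0.026), while the Fh1-/- difference did not pass (0.33, adjusted p = 0.16). Without control replicate 1, control replicate 2 or double knockout replicate 2 the adjusted p of Psmb10 was 0.053 to 0.057. Psmb8 was at 0.31 (adjusted p = 0.37) and 0.27 (adjusted p = 0.35), and Psmb9 at 0.28 (adjusted p = 0.69) and −0.43 (adjusted p = 0.41). Markers of other cells were counted beside the 6.16% and 19.3% of all genes called in Fh1-/- and double knockout kidneys against control. Of 6 macrophage markers 4 rose in Fh1-/- and 5 in double knockout kidneys, and their mean log2 signal was 10.19 to 10.62 on control, 10.89 to 11.43 on Fh1-/- and 11.14 to 11.38 on double knockout arrays. Of 6 interferon response genes 1 and 2 rose (9.93 to 10.39, 10.31 to 10.80 and 10.49 to 10.76), and of 3 lymphocyte markers none passed (8.17 to 8.36, 8.34 to 8.73 and 8.11 to 8.95). Their part in the values of Psmb10 and Psme1 was not tested.

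Other lists were counted beside the same shares of all genes. Of 8 fibroblast and matrix genes 4 rose in each knockout group, with a mean log2 signal of 9.68 to 10.29 on control, 10.54 to 10.79 on Fh1-/- and 10.55 to 11.10 on double knockout arrays. Of 6 proliferation genes 1 rose in Fh1-/- and 5 in double knockout kidneys (8.83 to 9.04, 9.23 to 9.53 and 9.50 to 9.71). Of the 8 tubule markers 3 fell and 1 rose in Fh1-/-, and 4 fell and 1 rose in double knockout kidneys (14.94 to 15.24, 14.58 to 14.80 and 14.59 to 14.76). In whole-kidney RNA, fewer cells of a type and less RNA per cell cannot be told apart, and the part of cell makeup in the subunit values was not tested.

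Genes that act with the proteasome were counted beside the same backgrounds, 6.16% of all genes called in Fh1-/- and 19.3% in double knockout kidneys against control. Of 8 measured assembly chaperones, which build the core and the base, 0 were called in any comparison. Their medians were −0.11 in Fh1-/- and −0.10 in double knockout kidneys. Psmd5, Psmd9 and Psmd10 are among these 8 and were also counted in the 36 subunit genes. Pomp, which matures the core, was at −0.20 (adjusted p = 0.13) and −0.19 (adjusted p = 0.087). Of 8 subunits and partners outside the rule 1 was called, the shuttle factor Rad23b, which carries ubiquitinated proteins to the cap. It read 11.26, 11.24, 11.50 and 11.07 in control, 11.63, 11.66, 11.62 and 11.64 in Fh1-/- and 11.72, 11.87, 11.62 and 11.88 in double knockout kidneys. All knockout arrays were above all control arrays, and the rise passed in the double knockout (0.50, 1.42-fold, adjusted p = 0.0063), while in Fh1-/- kidneys the difference was 0.37 (adjusted p = 0.06). The latter lay close to the threshold and passed with quantile normalization, no shift, array weights, the dim probes left out, Xist as a covariate or control replicate 3 left out (adjusted p 0.015 to 0.047).

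Of 7 genes of ubiquitin and its activation 1 was called, Ube2n, a conjugating enzyme for chains of the signalling type, which fell in double knockout kidneys (−0.44, adjusted p = 0.049). Ube2n passed only narrowly and lost the call in 10 of the 12 fits that left out 1 array. Of 11 genes of p97 and its cofactors, which extract proteins for degradation, 1 was called, Faf2, which rose in Fh1-/- kidneys (0.42, adjusted p = 0.032) and was at 0.19 (adjusted p = 0.21) in double knockout kidneys. Its call was lost on leaving out any 1 control array but the second, and any 1 Fh1-/- array.

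Of 8 regulators of proteasome gene transcription 1 rose in Fh1-/- and 2 in double knockout kidneys, where 6.16% and 19.3% of all genes were called. Nfe2l1 read 12.97, 12.93, 12.86 and 12.79 in control, 13.55, 13.36, 13.43 and 13.18 in Fh1-/- and 13.55, 13.55, 13.56 and 12.98 in double knockout kidneys. All knockout arrays were above all control arrays, the fourth double knockout array by the least. Its difference was 0.49 (adjusted p = 0.053) in Fh1-/- and 0.52 (1.44-fold, adjusted p = 0.019) in double knockout kidneys, which became 0.47 (adjusted p = 0.061) without double knockout replicate 2 and 0.47 (adjusted p = 0.05) without replicate 3. In Fh1-/- kidneys Nfe2l1 passed under 9 alternatives (adjusted p 0.013 to 0.044), among them the replicate number as a block (0.025), the split of the arrays as a block (0.032) and a fit of these groups alone (0.027). Stat3, a transcription factor of cytokine signalling, rose from 11.69 ± 0.08 in control to 12.38 ± 0.19 in Fh1-/- (0.69, adjusted p = 0.0021) and 12.60 ± 0.03 in double knockout kidneys (0.92, adjusted p = 0.00011; SD, n = 4 each). Nfe2l2 (0.14, adjusted p = 0.81 and 0.22, adjusted p = 0.6) and Keap1 (0.09, adjusted p = 0.62 and 0.20, adjusted p = 0.14) did not pass.

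Subunit genes of 3 other large complexes were counted in the same way. None of 9 genes of the COP9 signalosome, a relative of the proteasome lid, 9 of the translation factor eIF3 and 8 of the CCT chaperonin was called. Their medians in Fh1-/- and double knockout kidneys were −0.07 and −0.05 for COP9, 0.09 and 0.17 for eIF3, and 0.03 and 0.07 for CCT. Psmc3ip was at 0.05 and 0.02 and Psme3ip1 at 0.04 and 0.24, neither called.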

How the data were processed

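Members and gene lists were chosen with earlier results of these data known. According to the methods, the authors read the signals out in GenomeStudio; GeneSpring GX then aligned the arrays at their 75th percentile and set a baseline at the median over samples. The deposited table holds log2 signals, not centred, for 23863 probes, between 6.404 and 16.59. How the probes were filtered is not given in the sources used here. A table of signals that were not normalized was not used, since its 24 columns match no sample, so signal over background is unknown. Precision is limited by the number of arrays.

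The arrays were first aligned at the mean of their 75th percentiles, a move of 0.04 or less. Symbols came from the platform annotation (19906 probes with 1, 9 with several, 3948 with none), and the brightest probe stood for a gene. The 3 groups were fitted together with limma 3.58.1 in R 4.3.3 (eBayes with a trend), adjusted by Benjamini-Hochberg over all probes and called at 0.05. Single genes were also compared by a two-sided exact permutation test over 70 arrangements (smallest p 0.029). Values on each array are given for the 2 genes of each class with the smallest adjusted p in Fh1-/-Hif-1α-/- against control and the 1 in each other comparison. From the other lists the text names up to 4 called genes with the largest changes. Psmd11, Psmb3, Psmb6, Pomp, Nqo1 and the other genes named beside these were chosen after their values were seen or because of their role. Alternatives were other scalings, array weights, Xist as a covariate, blocks, other probes, thresholds and leaving out each array. Arrays are separate mice, but no label tells whether they shared a litter or a day. Promoters are RefSeq's (GRCm38.p6). Plots used matplotlib 3.10.9 in Python 3.11.15.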

Additional observations from a re-analysis of the deposited data

Results flagged for a closer look

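Over 66 groups of 4 arrays examined, 3 held 1 array far from the others, where chance alone gives about 1 in 20. Psmb5 was at 12.10 in control replicate 2, while the other control arrays were at 12.68 to 12.72. Psmb8, outside the member rule, was at 11.50 in control replicate 4, with the others at 10.85 to 10.89. The median of the ATPase genes, relative to the control mean, was −0.13 in control replicate 4, with the others at 0.02 to 0.05.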

How the results depend on the processing

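In Fh1-/- against control the count of called subunit genes was 0, and 3 with array weights (Psmc2 and Psmc4 lower, Psme1 higher). In Fh1-/-Hif-1α-/- against control it was 0, and 2 with quantile normalization (Psmb1 and Psmd8 higher), 1 without a shift (Psmd8), 4 with array weights (Psma4 and Psmb7 lower, Psmd8 and Psme1 higher), 2 with any probe of a gene or the dimmest (Psmd11 and Psme1), 1 over replicates 1 and 2 alone (Psmd8) and 2 with Xist as a covariate (Psma4 lower, Psmb1 higher). With the main settings 6.16% of all genes were called in Fh1-/- and 19.3% in Fh1-/-Hif-1α-/- against control. The share of all genes called under each alternative is not given here, so these counts were not set against a background. The median in Fh1-/- was −0.14, and −0.046 under quantile normalization. Leaving out each array gave counts of 0 to 0, 0 to 1 and 0 to 0 in Fh1-/- against control, Fh1-/-Hif-1α-/- against control and between knockouts, and medians of −0.17 to −0.09, −0.09 to −0.03 and −0.01 to 0.10. The dimmer probe of Psme1 kept its call in 8 of 12 such fits (adjusted p 0.017 to 0.078) and lost it without control replicate 1, 2 or 3 or Fh1-/-Hif-1α-/- replicate 2. That of Psmd11 lost it without any control array or Fh1-/-Hif-1α-/- replicate 1, 2 or 4. The causes were not tested. The deviations of arrays with the same replicate number correlated at −0.31 to 0.5, with a pair below 0 in each comparison, so the numbers were not taken as pairs. With the replicate number as a block the count stayed at 0 in each comparison and the medians at −0.14, −0.08 and 0.03, while Nfe2l1 passed in Fh1-/- (adjusted p = 0.025). Of 1053 single values of named subunit genes, 1039 kept their side of the threshold and 14 newly passed it; 37 changed sign, none of them called. Of 810 values of other named genes, 738 kept their side, 56 lost the call and 16 newly passed.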
